A study of Mus musculus with 22 samples.

Results

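The genes described here encode the receptors for the colony-stimulating factors and the growth factor of the macrophage receptor. They are Csf3r, Csf1r, Csf2ra, Csf2rb, Csf2rb2 and Il3ra, which are receptor genes, and Csf1, a ligand gene. They were chosen by symbol, 7 of the 35255 genes listed in any of 3 tables of raw counts, and all 7 were listed in each table and passed the filter on low counts in each comparison. Colony-stimulating factors are the cytokines that keep myeloid progenitors alive and direct them toward granulocytes or macrophages. The G-CSF receptor is the classical receptor of the neutrophil lineage and the M-CSF receptor that of monocytes and macrophages, while GM-CSF, IL-3 and IL-5 each use an alpha chain of their own with a shared beta chain that signals through JAK2 and STAT5. In tumor-bearing mice these factors drive the output of the immature myeloid cells called myeloid-derived suppressor cells (MDSC).

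RNA was sequenced in 22 libraries of mice of the C57BL/6N background, given alike for VISTA knockout (KO) and wild-type (WT) samples. VISTA is an immune checkpoint protein of myeloid and T cells encoded by Vsir. Bone marrow myeloid cells were kept in hypoxia for 24 hours (4 KO and 4 WT libraries) or in normoxia until day 4 (4 KO and 4 WT), and MC38 tumor samples were taken at day 7 (3 KO and 3 WT). MC38 is a mouse colon carcinoma line. The oxygen level, the culture medium with any cytokine in it, the knockout allele and the number of mice behind a library are not given in the sources used here. The labels call the tumor samples tumor tissue, while the names of the tables speak of MDSC, and no purification is given. The normoxia cultures are stated to be independent biological replicates. For the other experiments nothing says so, and their p-values measure only the spread between these libraries, which may be technical.

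Libraries held 30839108 to 30911687 counts in hypoxia KO and 31060342 to 31385825 in hypoxia WT cultures. The normoxia cultures held 23409142 to 23722932 in KO and 23486727 to 23667396 in WT. Tumor KO libraries, with 19119985 to 23089943 counts, were all shallower than tumor WT libraries, with 27452024 to 31716200. Member counts in a library ranged from 265 (Il3ra in a tumor KO library) to 85565 (Csf1r in a tumor WT library). Vsir averaged 151 ± 24.9 CPM in KO and 557 ± 41.3 CPM in WT hypoxia cultures, 167 ± 46.6 and 672 ± 83.9 CPM in KO and WT normoxia cultures (SD, n = 4 each), and 123 ± 6.74 and 488 ± 28.6 CPM in KO and WT tumor samples (SD, n = 3 each). No KO library reached the level of a WT library of its experiment. CPM are counts scaled to library size, with TMM factors over the 22 libraries. Markers of neutrophils were abundant in the cultures, with summed levels of 25000 to 63500 CPM, and scarce in the tumor samples, with 136 to 191 CPM over 11 genes. Nearly all of that came from Cd177 (117 CPM in KO and 91.3 CPM in WT on average) and Mmp8 (43.5 and 46.2 CPM), while Camp was not listed in the tumor table and Ly6g had 2 counts over the KO and 5 over the WT libraries. Markers of monocytes and macrophages summed to 2510 to 3860 CPM in the cultures and to 8830 to 10400 CPM in the tumor samples. In the tumor samples the 5 epithelial markers summed to 25.4 to 60.5 CPM in KO and 17.5 to 37.3 CPM in WT, and the 5 fibroblast markers to 492 to 611 CPM in KO and 397 to 484 CPM in WT. The epithelial markers summed higher in hypoxia cultures, to 111 to 173 CPM in KO and 254 to 296 CPM in WT. In normoxia cultures the epithelial sums were 42.5 to 73.8 CPM in KO and 64.6 to 93.2 CPM in WT. T and NK cell markers summed to 6.22 to 10.2 CPM in KO and 13.8 to 28.6 CPM in WT tumor samples (3 of 7 called lower), and erythroid markers to 124 to 133 CPM in KO and 64.4 to 99.2 CPM in WT (3 of 3 tested called higher). Of all genes tested in the tumor samples, 3.04% were called lower and 3.28% higher. Dendritic cell markers summed to 54.1 to 144 CPM in KO and 10.1 to 34.8 CPM in WT normoxia cultures. The part of these cells in the member results was not tested.

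On a scale per kilobase of exon, which allows levels of different genes to be compared, Csf2rb was the most abundant of the 7 genes in each culture group and Csf1r in both tumor groups. Csf2rb averaged 165 CPM per kilobase in hypoxia KO, 175 in hypoxia WT, 160 in normoxia KO and 168 in normoxia WT cultures. Csf1r averaged 487 CPM per kilobase in tumor KO and 478 in tumor WT samples. Il3ra and Csf1 were the least abundant in all 6 groups, between 4.87 and 21.7 CPM per kilobase. These 2 genes encode the ligand-specific chain of the IL-3 receptor and the M-CSF growth factor.

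**Figure D1:**
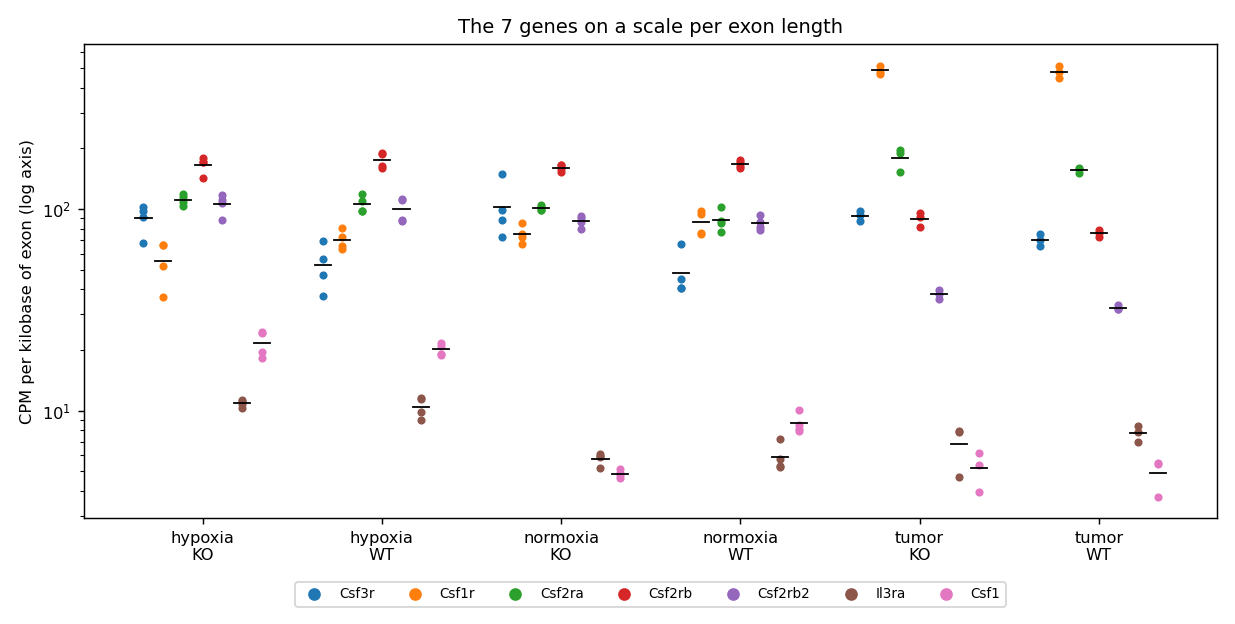
Level of the 7 genes in CPM per kilobase of exon (log axis) in the 6 groups; points are libraries and black bars group means. Csf2rb leads in the cultures and Csf1r in the tumor samples, while Il3ra and Csf1 lie lowest throughout.

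Csf3r encodes the G-CSF receptor, which drives the making and release of neutrophils. It lies on chromosome 4 of GRCm38, 126024550 to 126044440 on the plus strand (ENSMUSG00000028859).

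Csf3r was called higher in KO than in WT by edgeR in each experiment, with libraries that overlapped in hypoxia. In hypoxia its level was 371, 331, 353 and 244 CPM in the KO cultures, against 171, 250, 134 and 205 CPM in the WT cultures. Of the KO libraries 3 lay above all WT libraries, and KO replicate 4 lay just below WT replicate 2, so the groups overlapped. The log2 fold change was 0.76 ± 0.19 (SE; 95% interval 0.35 to 1.18; edgeR adjusted p = 0.0109). Without a filter on low counts the adjusted p was 0.0854.

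In normoxia the KO cultures had 318, 262, 358 and 541 CPM of Csf3r, and the WT cultures had 147, 146, 243 and 162 CPM. The groups did not overlap, although KO replicate 4 and WT replicate 3 each stood well above the others of their group. The log2 fold change was 1.08 ± 0.22 (95% interval 0.60 to 1.57; edgeR adjusted p = 0.0128), a mean level 2.12 times that of WT. The adjusted p was 0.0677 without a filter on low counts and 0.0589 without WT replicate 1, and with both high libraries left out together the call held.

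Tumor samples had 335, 315 and 352 CPM of Csf3r in KO and 235, 271 and 252 CPM in WT. All 3 KO libraries lay above all 3 WT libraries. The log2 fold change was 0.44 ± 0.08 (95% interval 0.27 to 0.61; edgeR adjusted p = 0.00486). The effect of the knockout was not shown to differ between experiments. The difference of the log2 fold changes was -0.32 ± 0.33 for hypoxia minus normoxia (edgeR adjusted p = 0.933), -0.68 ± 0.33 for tumor minus normoxia (adjusted p = 0.264) and -0.37 for tumor minus hypoxia (adjusted p = 0.544). Both tumor differences use the same tumor libraries. By mean level the 3 KO groups stood above the 3 WT groups, and each group overlapped its neighbour in that order.

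Neutrophil markers, like Csf3r, were higher in KO than in WT in the cultures. The likeness concerns genotype only: between hypoxia and normoxia Csf3r was not called, while these markers went both ways. In hypoxia 10 of 11 markers were called higher in KO, with summed levels of 52000 to 63500 CPM in KO and 25000 to 34300 CPM in WT. In normoxia 6 of 11 were called higher, with 40200 to 60500 CPM in KO and 29200 to 38700 CPM in WT. Ly6g, a surface protein of mouse neutrophils, had log2 fold changes of 1.52 in hypoxia and 1.11 in normoxia. Markers of eosinophils (7 of 7 called higher in hypoxia, 4 of 6 tested in normoxia) and of mast cells and basophils (7 of 7 and 6 of 6 tested) were higher in KO too. Beside these counts, 17.4% of all genes tested were called higher in hypoxia, 7.13% in normoxia and 3.28% in tumor samples. The eosinophil sums were 2170 to 3870 CPM in KO and 1080 to 1750 CPM in WT hypoxia cultures, and 82.7 to 137 CPM in KO and 63.9 to 77.2 CPM in WT normoxia cultures. In the tumor samples, 5 of 11 neutrophil markers could be tested and Cd177 alone was called (log2 fold change 0.40), with sums of 154 to 191 CPM in KO and 136 to 147 CPM in WT. In bulk RNA, more cells of a type and more RNA per cell cannot be told apart, and the part of cell numbers in the Csf3r result was not tested.

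**Figure D2:**
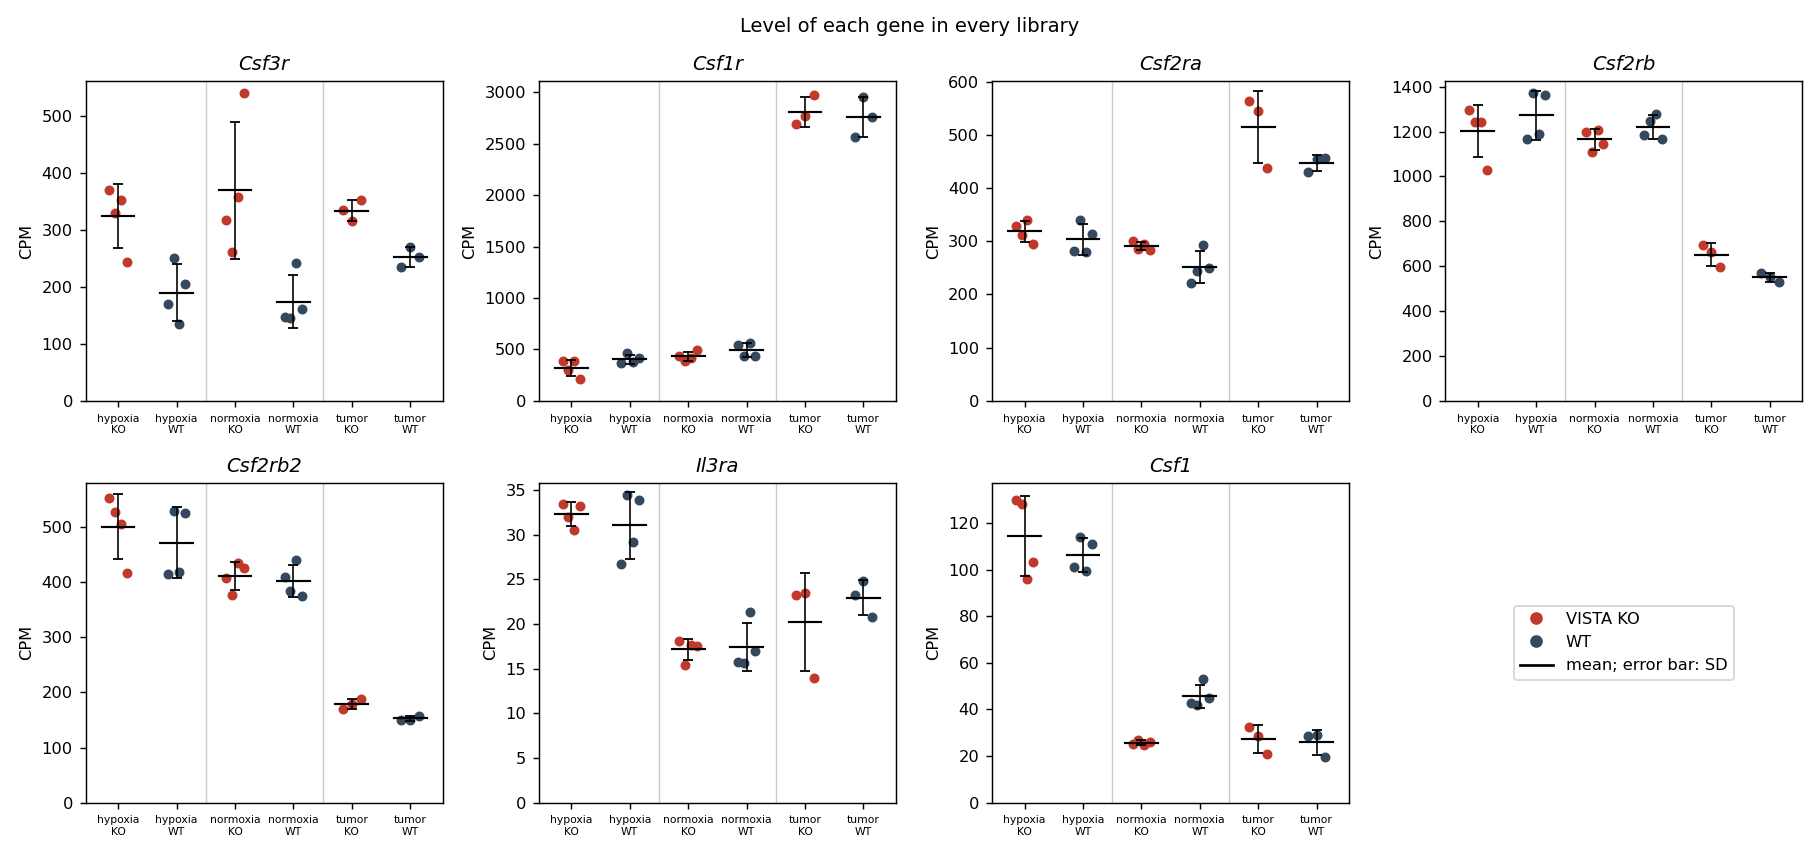
CPM of each gene in every library of the 6 groups, KO left of WT (red, KO; dark blue, WT); bars give the mean and its SD (n = 4 in each culture group, n = 3 in each tumor group). Csf3r is higher in KO in all 3 experiments, Csf1 is lower in KO in normoxia, and Csf1r is several times higher in the tumor samples than in any culture.

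Csf1r encodes the M-CSF receptor, a receptor tyrosine kinase that also binds IL-34 and on which most macrophages depend. It lies on chromosome 18 of GRCm38, 61100598 to 61132149 on the plus strand. No difference between KO and WT was called in any experiment. In hypoxia the KO cultures had 384, 300, 384 and 212 CPM and the WT cultures 365, 463, 377 and 417 CPM, with overlapping groups and a log2 fold change of -0.35 ± 0.16 (95% interval -0.71 to 0.01; edgeR adjusted p = 0.121). In normoxia the KO cultures had 433, 385, 420 and 491 CPM and the WT cultures 546, 436, 567 and 441 CPM, a log2 fold change of -0.20 ± 0.11 (edgeR adjusted p = 0.239). The mean was lower in KO in both cultures, and neither difference was called.

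Tumor samples had 2689, 2767 and 2971 CPM of Csf1r in KO and 2568, 2950 and 2759 CPM in WT. The groups overlapped, and the log2 fold change was 0.06 (edgeR adjusted p = 0.719). All tumor libraries lay far above all culture libraries. The tumor mean was 8.78 times the hypoxia mean in KO and 6.8 times in WT, and 6.5 times the normoxia mean in KO and 5.55 times in WT. These ratios set different kinds of sample from different tables side by side and were not tested. The exons of Csf1r share 873 bases with Hmgxb3 on the opposite strand, and no source used here gives the strand used in counting, so reads there cannot be told apart. Hmgxb3 had 18.5 to 42.9 CPM over all libraries. Of the 10 monocyte and macrophage markers, edgeR called 1 higher and 2 lower in KO in hypoxia, 2 higher in normoxia and none in tumor samples. The shares of all genes called in either direction were 34.9%, 11.3% and 6.32%, in the same order.

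The balance of the macrophage and granulocyte receptors, taken per library, kept the genotypes apart in each experiment. Csf1r over Csf3r, as a ratio of CPM per kilobase, was 0.544 to 0.681 in KO and 1.16 to 1.76 in WT hypoxia cultures. It was 0.567 to 0.92 in KO and 1.46 to 2.32 in WT normoxia cultures, and 5.02 to 5.48 in KO and 6.81 to 6.84 in WT tumor samples. The genotypes did not overlap in any experiment, including hypoxia, where neither gene alone separated them. Of 15 genotype comparisons over 5 ratios of members, 9 were apart, and no such share over other gene pairs was computed. The ratio is a description with no test, and Csf3r, whose own difference is given above, is its denominator.

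**Figure D3:**
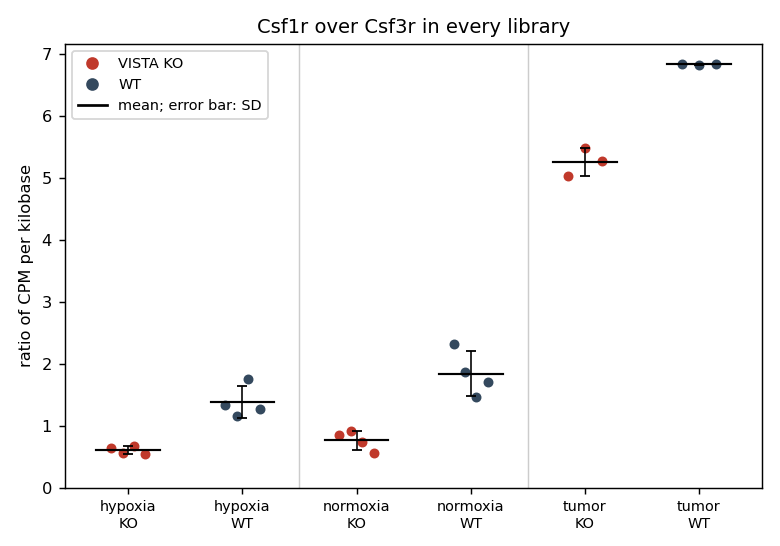
Ratio of Csf1r to Csf3r (CPM per kilobase of exon) in every library, KO left of WT; bars give the mean and its SD. KO libraries lie below WT libraries in each experiment, between 0.544 and 0.92 in the KO cultures and between 1.16 and 2.32 in the WT cultures.

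Csf1 encodes M-CSF, the main ligand of the M-CSF receptor. It lies on chromosome 3 of GRCm38, 107741048 to 107760469 on the minus strand. The 250 bases before its start are shown because, of the 7 genes, Csf1 differed most between hypoxia and normoxia cultures. Its response to the knockout also differed between these cultures. Oxygen, culture time and source table cannot be told apart in these contrasts. Capitals mark a match to the palindromic NF-kappaB form, GGG and CCC with 5 bases of any kind between them.
Csf1, chr3:107760470-107760719, minus strand: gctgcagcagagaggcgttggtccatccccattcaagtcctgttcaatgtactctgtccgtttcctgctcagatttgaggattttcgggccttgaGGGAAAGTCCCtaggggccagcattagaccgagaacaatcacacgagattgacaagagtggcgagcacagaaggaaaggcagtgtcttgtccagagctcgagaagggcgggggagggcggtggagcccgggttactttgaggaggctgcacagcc
The match starts 155 bases before the start site, and 12.2% of all promoters of that length held this motif. The window held no HIF core on either strand (ACGTG, in 16.6% of promoters, or GCGTG, in 28.2%), which says only that these letters are not in this window.

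Csf1 was lower in KO in normoxia and was not called in hypoxia or tumor samples. The normoxia KO cultures had 25.4, 27.0, 24.6 and 26.0 CPM, against 42.7, 41.9, 53.0 and 44.96 CPM in the WT cultures. All KO libraries lay below all WT libraries, with a spread of 1.02 CPM in KO and 5.06 CPM in WT (SD, n = 4 each). The log2 fold change was -0.82 ± 0.10 (95% interval -1.03 to -0.61; edgeR adjusted p = 0.000835). The call held with each library left out in turn, with adjusted p-values up to 0.00496. The summed monocyte and macrophage markers stood at 3200 to 3720 CPM in KO and 2510 to 3130 CPM in WT normoxia cultures, with most of the sum from Ly6c2 (2070 CPM in KO and 1710 CPM in WT, not called). C1qa and C1qb were the 2 of 10 markers called higher, beside 7.13% of all genes. Cd68, at 234 CPM in KO and 279 CPM in WT, had a lower mean in KO. The part of these cells in the Csf1 result was not tested.

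In hypoxia the KO cultures had 130, 128, 96.1 and 103 CPM of Csf1 and the WT cultures 101, 114, 99.4 and 111 CPM. These groups overlapped, with a log2 fold change of 0.10 (95% interval -0.12 to 0.32; edgeR adjusted p = 0.46). Tumor samples had 32.6, 28.5 and 20.7 CPM in KO and 28.8, 29.1 and 19.8 CPM in WT, a log2 fold change of 0.11 ± 0.18 (edgeR adjusted p = 0.794). In each tumor group 1 library, replicate 3 in both, was well below the others.

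The effect of the knockout on Csf1 differed between experiments in tests of the difference itself. Between hypoxia and normoxia the difference of the log2 fold changes was 0.92 ± 0.14 (95% interval 0.63 to 1.22; edgeR adjusted p = 0.00403, interaction over 16 culture libraries). Csf1 was among 73 genes called in this comparison, 0.476% of those tested (0.189% higher and 0.287% lower), and was the only member called. Between tumor and normoxia it was 0.90 ± 0.20 (95% interval 0.49 to 1.31; edgeR adjusted p = 0.00778), in a comparison that called 1 of 7 members higher, beside 5.18% of genes in either direction and 1.84% higher. Both share the normoxia libraries. Between tumor and hypoxia the difference was -0.03 (adjusted p = 0.976), where no member was called by edgeR, beside 7.7% of genes, 2.93% higher and 4.77% lower. Oxygen, culture time and source table cannot be told apart here, while any shift that KO and WT share drops out of these differences.

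Across the groups, Csf1 was highest in the hypoxia cultures, whose genotypes overlapped, then in normoxia WT, and lowest in tumor KO, tumor WT and normoxia KO samples, which overlapped. The mean in hypoxia was 4.45 times that in normoxia in KO cultures and 2.33 times in WT cultures. The log2 fold changes of hypoxia over normoxia were 2.15 ± 0.11 in KO (edgeR adjusted p = 1.73e-11) and 1.22 ± 0.10 in WT (adjusted p = 1.75e-08). Csf1r over Csf1, per kilobase, was 1.88 to 3.66 in KO and 3.3 to 3.72 in WT hypoxia cultures. It was 13 to 17.3 in KO and 8.97 to 11.7 in WT normoxia cultures, and 75.4 to 131 in KO and 81.7 to 128 in WT tumor samples.

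The other ligands of these receptors were scarce. Csf2, which encodes GM-CSF, had 35 counts summed over the hypoxia KO libraries and 31 over the hypoxia WT libraries, and the normoxia and tumor tables do not list it. Csf3, which encodes G-CSF, had 9 and 19 counts over the hypoxia KO and WT libraries, 1 and 1 in normoxia, and 12 and 2 in tumor samples. Il34, which encodes the second ligand of the M-CSF receptor, averaged 1.46 ± 0.47 CPM in KO and 0.68 ± 0.19 CPM in WT tumor samples (SD, n = 3 each) and was not called. Il5 had at most 3 counts over a group, and Il3 was not analysed here. These are levels in the sampled cells and say nothing of added or circulating factor.

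Csf2rb and Csf2rb2 encode the beta chains. In the mouse, the product of Csf2rb serves the receptors for GM-CSF, IL-3 and IL-5, while that of Csf2rb2 serves IL-3. The genes are neighbours on chromosome 15 of GRCm38, Csf2rb at 78325752 to 78353847 on the plus strand and Csf2rb2 at 78282507 to 78305721 on the minus strand. Their coding sequences are 95.4% identical (2504 of 2626 aligned bases, GENCODE M21), and 26% of the 50-base windows of Csf2rb occur unchanged in Csf2rb2. The windows below, 90 coding bases within an exon of each gene, are shown because this likeness decides how well reads can be assigned; capitals mark bases that differ between the genes.
Csf2rb, chr15:78338897-78338986, plus strand: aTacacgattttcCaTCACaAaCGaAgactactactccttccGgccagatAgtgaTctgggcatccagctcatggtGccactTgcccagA
Csf2rb2, chr15:78294345-78294434, minus strand: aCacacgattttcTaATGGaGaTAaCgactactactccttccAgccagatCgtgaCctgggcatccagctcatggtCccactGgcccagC
Csf2rb, chr15:78341658-78341747, plus strand: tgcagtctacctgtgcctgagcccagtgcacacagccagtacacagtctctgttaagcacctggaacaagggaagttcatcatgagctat
Csf2rb2, chr15:78291563-78291652, minus strand: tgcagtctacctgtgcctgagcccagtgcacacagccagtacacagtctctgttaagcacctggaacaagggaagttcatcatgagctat
The first pair differs at 16 bases, the most of 1310 window pairs compared, and the second at 0, as do 286 of those pairs. A read within the second pair fits both genes, and the read length and the treatment of such reads are not given, so the split of counts between the genes is uncertain.

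Csf2rb was higher in KO in the tumor samples. There it had 696, 662 and 595 CPM in KO, against 571, 553 and 531 CPM in WT, with no overlap. The log2 fold change was 0.27 ± 0.07 (95% interval 0.12 to 0.43; edgeR adjusted p = 0.0412). This call was near the threshold: the adjusted p was 0.0515 with RLE size factors and 0.0614 with limma on the normalized values. It was lost with any library but KO replicate 3 left out, up to 0.254 without KO replicate 1, 0.211 without KO replicate 2 and 0.0849, 0.108 and 0.124 without WT replicates 1, 2 and 3. Csf2rb2 had 169, 179 and 188 CPM in KO and 150, 151 and 158 CPM in WT tumor samples, again without overlap (log2 fold change 0.26 ± 0.07; edgeR adjusted p = 0.0554). DESeq2 called it (adjusted p = 0.0454), and so did edgeR with the replicate number as a block (0.00237). With the counts of both genes summed, which does not depend on the split, the log2 fold change was 0.27 (adjusted p = 0.0298).

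In the cultures neither beta chain gene was called between genotypes. Csf2rb had 1296, 1241, 1241 and 1031 CPM in KO and 1167, 1374, 1188 and 1361 CPM in WT hypoxia cultures. It had 1198, 1108, 1208 and 1145 CPM in KO and 1185, 1246, 1280 and 1168 CPM in WT normoxia cultures. The groups overlapped in both conditions, with log2 fold changes of -0.09 in hypoxia and -0.06 in normoxia (edgeR adjusted p = 0.452 and 0.622). Csf2rb2 ranged from 417 to 553 CPM in KO and from 414 to 529 CPM in WT hypoxia cultures, and from 378 to 436 CPM in KO and from 375 to 440 CPM in WT normoxia cultures, also overlapping. Both genes were lower in the tumor samples than in any culture. The tumor mean of Csf2rb was 0.541 of the hypoxia mean in KO and 0.434 in WT, and that of Csf2rb2 was 0.357 in KO and 0.324 in WT, which was not tested. Per kilobase, Csf2rb over Csf2rb2 lay between 1.53 and 2.68 in all libraries.

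Csf2ra and Il3ra encode the alpha chains that give the GM-CSF and IL-3 receptors their specificity. Csf2ra lies on chromosome 19 of GRCm38 (61223957 to 61228429, minus strand) and Il3ra on chromosome 14 (14346275 to 14356011, plus strand). Csf2ra had 329, 311, 339 and 295 CPM in KO and 282, 340, 279 and 314 CPM in WT hypoxia cultures, and 301, 285, 295 and 283 CPM in KO and 221, 244, 294 and 249 CPM in WT normoxia cultures. Tumor samples had 563, 545 and 437 CPM in KO and 431, 455 and 456 CPM in WT. The genotypes overlapped in each experiment, in normoxia through WT replicate 3 and in the tumor samples through KO replicate 3. None of the log2 fold changes, 0.06 in hypoxia, 0.21 ± 0.10 in normoxia and 0.24 ± 0.09 in tumor samples, was called (edgeR adjusted p = 0.554, 0.156 and 0.143). Without WT replicate 3 the normoxia value was 0.30 (adjusted p = 0.0334), and without KO replicate 3 the tumor value was 0.32 (adjusted p = 0.0222).

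All tumor libraries lay above all culture libraries for Csf2ra, the reverse of the beta chain genes. Csf2rb over Csf2ra, per kilobase, was 0.479 to 0.537 in KO and 0.46 to 0.523 in WT tumor samples. In the cultures it was 1.38 to 1.58 in KO and 1.59 to 1.71 in WT under hypoxia, and 1.53 to 1.62 in KO and 1.72 to 2.12 in WT under normoxia. The culture ratios did not overlap between genotypes, while the tumor ratios did. In hypoxia they nearly touched, at 1.58 in KO and 1.59 in WT, and neither gene was called between genotypes in the cultures. No share of other gene pairs lying apart was computed for this ratio or the next, and both are descriptions with no test. Csf2ra over Il3ra was apart in normoxia (16.7 to 19.2 in KO and 14.2 to 16.2 in WT) and in tumor samples (23.9 to 32.4 in KO and 19 to 22.6 in WT), and overlapped in hypoxia.

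Il3ra was low throughout and was not called between genotypes. It had 33.5, 32.02, 30.6 and 33.2 CPM in KO and 26.8, 34.5, 29.2 and 33.9 CPM in WT hypoxia cultures. It had 18.1, 15.4, 17.7 and 17.5 CPM in KO and 15.7, 15.6, 21.3 and 17.0 CPM in WT normoxia cultures. Tumor samples had 23.2, 23.5 and 13.9 CPM in KO and 23.3, 24.8 and 20.8 CPM in WT. The log2 fold changes were 0.05 in hypoxia, -0.02 in normoxia and -0.15 in tumor samples (edgeR adjusted p = 0.69, 0.936 and 0.683). The hypoxia groups lay above all others without overlap, and the tumor and normoxia groups overlapped one another in order of their means. Exons of Il3ra share 46 bases with the antisense gene Gm48860, which had at most 0.344 CPM in a library.

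The members called between genotypes are set here beside all genes tested. In hypoxia edgeR called 1 of 7 members higher and none lower, while 34.9% of 15018 genes were called, 17.4% higher and 17.6% lower. In normoxia 1 of 7 was higher and 1 lower, while 11.3% of 13950 genes were called, 7.13% higher and 4.17% lower (995 and 582 genes; 726 and 951 with scaling by library size alone). In tumor samples 2 of 7 were higher and none lower, while 6.32% of 14370 genes were called, 3.28% higher and 3.04% lower. Genotypes did not overlap for 0 members in hypoxia (32.6% of all genes), 1 upward and 1 downward in normoxia (20% of all genes, 10.7% upward and 9.33% downward) and 3 upward in tumor samples (26.1% of all genes, 13% upward and 13% downward). The members' median log2 fold change was 0.06 in hypoxia, -0.02 in normoxia and 0.24 in tumor samples, beside -0.01, -0.02 and 0.01 over all genes. A share of members rests on 7 genes and is given as a description.

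**Figure D4:**
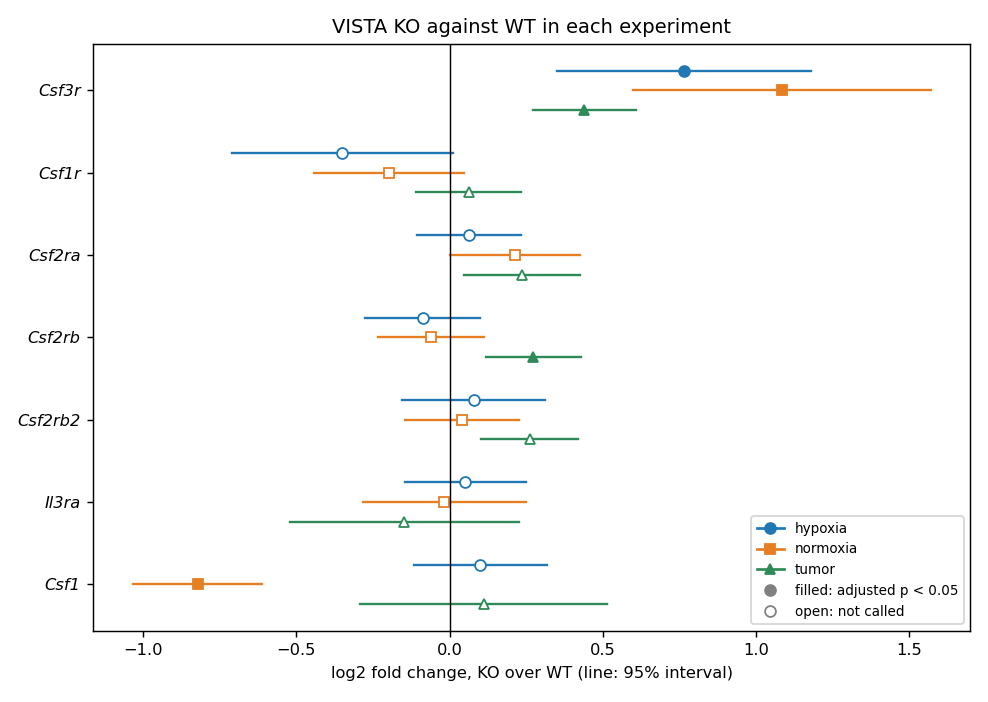
Log2 fold change of KO over WT for the 7 genes in hypoxia, normoxia and tumor samples, with 95% intervals; filled symbols passed an edgeR adjusted p of 0.05. Csf3r lies right of 0 in all 3 experiments, Csf1 lies left of 0 in normoxia alone (-0.82), and Csf2rb is called in tumor samples (0.27).

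Hypoxia cultures differed from normoxia cultures in several members, with time and table standing in the same contrast. Il3ra was higher in hypoxia in both genotypes, by 0.91 ± 0.11 (log2) in KO and 0.84 ± 0.11 in WT (edgeR adjusted p = 1.5e-06 and 3.89e-06), with no overlap. Il3ra and Csf1 were the 2 members whose hypoxia libraries all lay above the normoxia libraries in both genotypes, as 22.8% of all genes did in KO and 24.5% in WT. Hypoxia and normoxia libraries were apart in either direction for 3 members in KO (43.4% of all genes) and 2 in WT (47% of all genes). Csf1r was lower in hypoxia in KO cultures, without overlap (log2 fold change -0.44 ± 0.15; edgeR adjusted p = 0.0204). That call was lost without a filter on low counts (adjusted p = 0.0675) and without hypoxia KO replicate 2 (0.0534) or 4 (0.0577) or normoxia KO replicate 4 (0.0595). In WT cultures the log2 fold change of Csf1r was -0.29 (adjusted p = 0.112). It was called with scaling by library size alone (-0.43; adjusted p = 0.0179) and without hypoxia KO replicate 4, which shares the estimate of spread (0.0389), and the difference between the genotypes was not called (-0.15; adjusted p = 0.973).

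Smaller rises in hypoxia concerned the GM-CSF and IL-3 receptor chains. Csf2rb2 was higher in hypoxia in KO cultures (0.27 ± 0.10; edgeR adjusted p = 0.0294), and its log2 fold change in WT cultures was 0.23 (adjusted p = 0.0619), called in 4 of 16 cases with 1 library left out. Csf2ra was higher in WT cultures (0.27 ± 0.09; edgeR adjusted p = 0.0142), and its log2 fold change in KO cultures was 0.12 (adjusted p = 0.244). Libraries of hypoxia and normoxia overlapped for both. The Csf2rb2 call was lost with scaling by library size alone (adjusted p = 0.116), and so was the Csf2ra call (0.179), which was also lost without hypoxia WT replicate 2 (0.058) or normoxia WT replicate 1 (0.0634). For Csf2rb2, leaving out 1 library ended the call in 5 of 16 cases, with adjusted p-values up to 0.0898. Csf3r and Csf2rb were not called in either genotype. In all, 3 of 7 members were called higher and 1 lower in KO, and 3 higher and none lower in WT, while 51.8% of 15325 genes were called in each genotype, 26.3% higher and 25.5% lower in KO and 26.8% higher and 24.9% lower in WT.

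**Figure D5:**
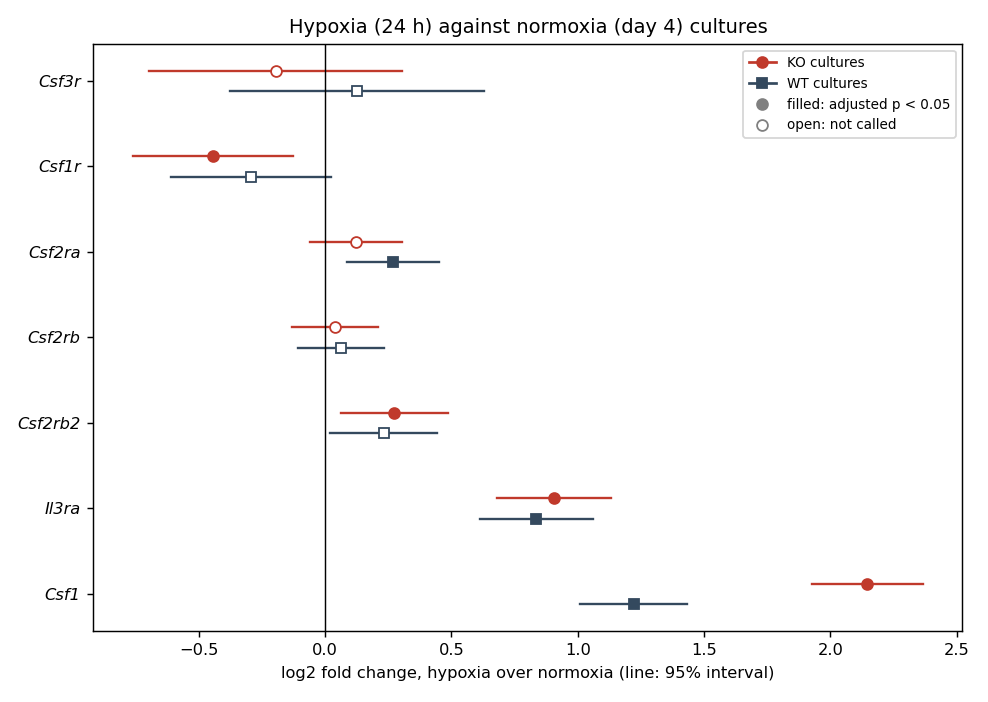
Log2 fold change of hypoxia (24 hours) over normoxia (day 4) cultures for the 7 genes in KO and WT, with 95% intervals; filled symbols passed an edgeR adjusted p of 0.05. Csf1 (2.15 in KO and 1.22 in WT) and Il3ra (0.91 and 0.84) lie far right of 0 in both genotypes.

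Markers of several cell types differed between hypoxia and normoxia, not only those of cells that use these receptors. The 7 markers of mast cells and basophils, which carry IL-3 receptors, summed to 720 to 1050 CPM in KO and 464 to 718 CPM in WT hypoxia cultures, and to 56.1 to 83.7 CPM in KO and 26.4 to 36.6 CPM in WT normoxia cultures; 7 of 7 were called higher in hypoxia in either genotype. Of the 7 eosinophil markers, 7 were called higher in KO and 6 in WT. Of all genes, 26.3% were called higher and 25.5% lower in hypoxia in KO, and 26.8% higher and 24.9% lower in WT. Of 11 neutrophil markers, 4 were called higher and 3 lower in KO, and 1 higher and 5 lower in WT. Lists of other cells rose too, with 5 of 5 tested erythroid markers called higher in KO and 4 of 5 in WT. Of 3 endothelial markers, 2 were called higher in KO and 3 in WT. The part of these cells in the Il3ra and Csf2rb2 differences was not tested.

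The genes downstream of the beta chains were compared as a list of 17 covering JAK and STAT5 signalling and its targets, all of them tested. In KO against WT, edgeR called 4 higher and 3 lower in hypoxia, 2 higher and none lower in normoxia, and 1 higher and 2 lower in tumor samples. Over all genes tested, 34.9% were called in hypoxia, 11.3% in normoxia and 6.32% in tumor samples, and the counts of this list and the 3 that follow are descriptions beside those shares. In hypoxia Jak1, Shc1 and Stat5b rose (log2 fold changes 0.29, 0.32 and 0.30), and Socs1, a feedback inhibitor of JAK kinases, fell by 0.55. In normoxia Jak2, the kinase bound to the beta chain, rose by 0.29 and Socs3, a feedback inhibitor that also acts on the G-CSF receptor, rose by 0.43. In tumor samples Socs3 rose by 0.63 (edgeR adjusted p = 0.00013), while the survival gene Bcl2l1 (-0.54) and the phosphatase gene Ptpn11 (-0.36) fell. The list's median log2 fold change was 0.09 in hypoxia, 0.10 in normoxia and 0.07 in tumor samples, beside medians over all genes between -0.02 and 0.01. The Socs3 effect differed between tumor and hypoxia (difference 0.96 ± 0.17; edgeR adjusted p = 0.000766). In that comparison 1 of the 17 was called higher and 1 lower, beside 2.93% and 4.77% of all genes.

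Of 11 genes of M-CSF and G-CSF receptor signalling, 1 was called between KO and WT in any experiment. Cbl, a ubiquitin ligase that helps remove the M-CSF receptor from the surface, rose in hypoxia by 0.34 (edgeR adjusted p = 0.00583), and none was called in normoxia or tumor samples at an adjusted p under 0.05. Medians were 0.11 in hypoxia, 0.16 in normoxia and 0.02 in tumor samples. Inpp5d, which encodes the phosphatase SHIP1, had a KO effect that differed between tumor and normoxia (difference -0.39; edgeR adjusted p = 0.0359). It was the 1 of 11 called lower there, beside 3.34% of all genes, and none was called higher.

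Transcription factors known to act on these receptor genes were compared as a list of 17. In KO, edgeR called 10 higher and 2 lower in hypoxia, 4 higher and 1 lower in normoxia, and 3 higher and 1 lower of 16 tested in tumor samples. Cebpe, which encodes a C/EBP protein of late granulocyte maturation, rose by 0.92 in hypoxia and 0.61 in normoxia and fell in tumor samples (-1.09 ± 0.22). In the tumor samples Cebpe was scarce and averaged 1.82 CPM in KO and 3.96 CPM in WT. The culture groups averaged 73.4 to 160 CPM. Cebpd rose by 0.77 in hypoxia and 0.62 in normoxia. Gfi1, which encodes a transcriptional repressor that acts in granulocyte development, rose by 0.98 in hypoxia, and Cebpa by 0.41. Gata2, a factor of progenitors and mast cells, rose by 1.17 in normoxia, where it was scarce (3.58 CPM in KO and 1.6 CPM in WT). Klf4, a monocyte factor, fell in normoxia (-0.43) and rose by 0.48 in tumor samples, where Egr1 and Egr2, factors of macrophage differentiation, rose by 0.41 and 0.49. The Cebpe effect differed between tumor and hypoxia (-2.04) and between tumor and normoxia (-1.72; edgeR adjusted p = 1.72e-06 and 2.87e-05). For tumor minus hypoxia 1 of the 17 was called higher and 2 lower, beside 2.93% and 4.77% of all genes. For tumor minus normoxia 1 was called higher and 1 lower, beside 1.84% and 3.34%. Medians of the list were 0.41 in hypoxia, 0.09 in normoxia and 0.13 in tumor samples.

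Other haematopoietic cytokine receptors formed a list of 20. In KO, 4 were called higher and 1 lower by edgeR in hypoxia, 4 higher and none lower of 16 tested in normoxia, and 2 higher and 1 lower of 17 tested in tumor samples. The log2 fold change was positive for 8 of 20 in hypoxia, 14 of 16 in normoxia and 13 of 17 in tumor samples. Medians of the list were -0.03 in hypoxia, 0.24 in normoxia and 0.13 in tumor samples. The receptors of this list named below all rose, and those called lower are not named. Kit, the stem cell factor receptor, rose by 0.82 in hypoxia and 0.72 in normoxia, and Il1rl1, the IL-33 receptor, by 0.81 and 1.62. Il1rl1 was scarce in normoxia, at 2.54 CPM in KO and 0.826 CPM in WT. Il5ra, the alpha chain that pairs with the product of Csf2rb to bind IL-5, rose by 1.09 ± 0.29 in hypoxia, where 7 of 7 eosinophil markers were also higher. Its level there was low, 2.54 CPM in KO and 1.18 CPM in WT. Il6ra and Il6st, the chains of the IL-6 receptor, rose by 0.68 and 0.65 in normoxia. In tumor samples Flt3, a receptor of dendritic cell progenitors, rose by 1.46 ± 0.27, at low levels of 3.59 CPM in KO and 1.33 CPM in WT. There 3 of 7 dendritic cell markers were called higher, namely Cd209a, H2-Aa and H2-Eb1, beside 3.28% of all genes. The marker sums of 4560 to 6440 CPM in KO and 2710 to 3710 CPM in WT came almost wholly from H2-Aa and H2-Eb1, genes of MHC class II, which macrophages express too. Xcr1 averaged 2.77 CPM in KO and 2.91 CPM in WT, and Ccr7 1.73 and 1.69 CPM. The part of dendritic cells in the tumor Csf2rb, Csf3r and Flt3 differences was not tested.

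The genes whose levels followed each member most closely over the 16 culture libraries were found by Pearson's r of log2 CPM among 8486 genes. For Csf3r they were Wipf1, Acox3 and Dennd1c (r = 0.977, 0.974 and 0.97), and for Csf1r they were Cgnl1, Psap and P2rx4 (0.96, 0.946 and 0.935). Csf1 was followed by Lair1, Vegfa and Parvb (0.982 each), where Vegfa, which encodes a vascular growth factor, is a textbook gene of the low-oxygen response. Il3ra was followed by Ppp1r15a, Chd3 and Coq8b (0.983, 0.983 and 0.981). Csf2ra and the beta chain genes had lower values, with Plekhg2, Arrdc1 and Ubl7 for Csf2ra (0.924, 0.921 and 0.91), Ppard, Tmem184b and Plxnd1 for Csf2rb (0.898, 0.857 and 0.819), and Adamtsl4, Fam168a and Mapre2 for Csf2rb2 (0.925, 0.919 and 0.91). The points fall into 4 culture groups from 2 tables and share their library scaling, so these values describe likeness of pattern and carry no test.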

How the data were processed

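RNA of 22 mouse libraries was analysed from gene tables. The labels' protocols give 100 ng of total RNA and a Takara SMART-Seq kit. For each experiment the authors deposited raw counts per Ensembl gene and a second table of normalized signal. Per the submitters' processing notes, which name no versions, Subread, featureCounts, DESeq2 and the build GRCm38.p6 were used. The normalized table is one in which each column equals the raw counts times 1 factor. The counts gave all main results, and the normalized values gave 1 alternative. The lowest summed count of a listed gene was 2. Culture columns not named WT carry a code and were read as KO by elimination, with the condition taken from their table. Of the identifiers, GENCODE M21 held 33161 of 33265 (hypoxia), 23860 of 23912 (normoxia) and 24199 of 24251 (tumor).

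Genes were tested with edgeR 4.0.16 in R 4.3.3 (filterByExpr, TMM, robust quasi-likelihood test), with Benjamini-Hochberg adjustment over all tested genes and a threshold of 0.05. SE was taken as the fold change over the root of F. Each experiment was fitted alone. The differences between KO effects and the oxygen contrasts used 16 culture libraries, and those with tumor samples used all 22, with genes missing from a table set to 0. The procedure was also run on counts simulated from its own model, which cannot show how well that model suits these data. Levels are CPM with TMM over 22 libraries, also divided by kilobases of exon. Alternatives were RLE size factors, library size alone, no filter, a replicate block, DESeq2 1.42.0, limma 3.58.1 on log2(normalized value + 1), summed beta chain genes, and leaving out libraries. Replicate numbers were not used to pair samples in the main fits. No library copied another: the lowest chi-square between libraries of a group was 4.57 per degree of freedom.

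The members and lists were chosen with earlier results of these data known. Named genes are the 7 members, Vsir, up to 4 called genes with the smallest p per pathway list and comparison, and 3 genes most alike per member; the marker genes and the neighbours Hmgxb3 and Gm48860 were named after their values were seen. Intervals cover 95% from the fit. Promoters came from RefSeq (GRCm38.p6).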

Additional observations from a re-analysis of the deposited data

Results flagged for a closer look

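Of 28 sets of 4 culture libraries checked, a set being a gene in a group, 1 held a library far from the others by Dixon's test. Csf3r in normoxia WT replicate 3 had 242.8 CPM, and its gap to the nearest library was 0.836 of the range of the group, above the 95% critical value. A 95% test flags some sets by chance, and without this library Csf3r was still called higher in KO in normoxia.

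The knockout effect on Csf1 differed between experiments. The difference of log2 fold changes was 0.92 for hypoxia minus normoxia and 0.90 for tumor minus normoxia, both called by edgeR. The normoxia libraries enter both.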

How the results depend on the processing

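Over 1109 alternatives of member fold changes, 1035 kept direction and side of the threshold, 24 lost a call, 14 gained one and 36 changed sign, all 36 in fold changes that were not called. Only 14 of the 56 member tests were called in the main fits, so most alternatives had no call to lose. The calls of Csf1 held in each alternative run, and Csf3r in tumor samples too. Causes of the changes below were not tested.

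Genes called moved by more than 1.5 times as follows. In normoxia, 1577 genes became 2399 with DESeq2 and 2881 without KO replicate 4 and WT replicate 3, and 469 to 2233 with 1 library left out. In tumor samples, 908 became 1363 without a filter and 2266 with the replicate block, and 444 to 1072 with 1 library left out. For hypoxia minus normoxia, 73 became 35 with the replicate block, 201 with DESeq2 and 40 to 100 with 1 library left out. For tumor minus normoxia, 865 became 1344 with DESeq2. Members called were 1 in normoxia and 0 in hypoxia without a filter, 3 in normoxia without KO replicate 4 and WT replicate 3, 1 in tumor samples with RLE size factors or limma, and 4 there with the replicate block, which added Csf2ra and Csf2rb2, and 3 with DESeq2. Library size alone gave 2 members for tumor minus normoxia and 1 for tumor minus hypoxia, adding Csf2rb (0.42 and 0.41). With 1 library left out, members called were 1 to 3 in normoxia, 1 to 3 in tumor samples, 2 to 5 for oxygen in WT and 2 to 4 for oxygen in KO.

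Scaling by library size alone moved the median of all genes to -0.11 in normoxia, -0.11 for oxygen in KO, -0.14 for oxygen in WT and 0.12 for tumor minus normoxia, and with it the split of calls: 3359 higher and 4932 lower for oxygen in KO (4030 and 3910 with TMM), 3170 and 5503 in WT (4110 and 3822), 481 and 347 for tumor minus normoxia (307 and 558), 684 and 595 for tumor minus hypoxia (489 and 796), and 42 and 42 for hypoxia minus normoxia (29 and 44). In hypoxia it gave 2185 and 3175 (2607 and 2638). It turned the sign of Csf2ra for tumor minus normoxia (0.11), Csf1 for tumor minus hypoxia (0.056), Csf2rb for hypoxia minus normoxia (0.016), Csf2rb2 in normoxia (-0.048), Csf2rb for oxygen in KO (-0.055) and WT (-0.071) and Csf3r for oxygen in WT (-0.0040). Levels by total library size moved by more than 1 SD for Csf2ra in normoxia KO (300.7 CPM) and tumor WT (420 CPM), Csf2rb in normoxia WT (1330 CPM) and tumor WT (518 CPM), and Csf2rb2 in normoxia WT (439 CPM) and tumor WT (144 CPM). Without KO replicate 4 and WT replicate 3, Il3ra in normoxia was 0.10.

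With 1 library left out, signs changed within these ranges: Il3ra -0.019 to 0.11 in hypoxia, -0.072 to 0.10 in normoxia and -0.27 to 0.041 in tumor samples; Csf1r -0.000287 to 0.10 and Csf1 -0.052 to 0.26 in tumor samples; Csf1r -0.25 to 0.000714, Csf2rb -0.065 to 0.039, Csf2rb2 -0.015 to 0.12 and Il3ra -0.048 to 0.12 for hypoxia minus normoxia; Csf3r -0.34 to 0.045 for oxygen in KO and -0.033 to 0.33 in WT; Csf2ra -0.11 to 0.080 and Il3ra -0.30 to 0.026 for tumor minus normoxia; and Csf1 -0.19 to 0.14 for tumor minus hypoxia.

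The replicate block changed no other count of calls by over 1.5 times; it ended the Csf2rb2 call for oxygen in KO (adjusted p = 0.0534). Same-numbered libraries did not deviate together throughout (r from -0.40 to 0.36 over the pairs of groups checked). In the tumor samples, though, each KO library was most like the WT library of its own number (r = 0.19, 0.0731 and 0.227). The main fit of the tumor samples took no account of these numbers, and whether they pair the samples is not known. Limits are the 3 tumor libraries per genotype, the shallower tumor KO libraries, the unstated strand and read length, and oxygen standing with time and table.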
